A study of Homo sapiens with 4 samples.

Results

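YY1, SETDB1, BCLAF1 and CLOCK are 4 regulators that the study listed among its predicted master regulators, YY1 and SETDB1 for the prostate line DU-145 and BCLAF1 and CLOCK for the colon line COLO-205. They are 4 of the 20098 protein-coding genes that GENCODE places on chromosomes 1 to 22 and X of hg19. For each gene, peaks of the histone mark H3K27ac were taken where they overlapped 1 kb on either side of one of its transcript starts (promoter peaks), or lay within 50 kb of the gene body and outside 1 kb of every annotated transcript start (distal peaks). The 4 genes hold 72 such peaks of the 85576 for COLO-205, 108 of 75468 for DU-145, 29 of 76093 for OVCAR-3 and 9 of 14001 for SKOV-3.

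The study searched cancer cell lines for non-coding mutations that could change regulatory networks, and profiled H3K27ac by ChIP-seq in these 4 lines to mark active regulatory regions. COLO-205 is an established colon cancer line grown in RPMI with fetal bovine serum (FBS), DU-145 a prostate cancer line in Eagle minimal essential medium with FBS, OVCAR-3 an ovarian cancer line in RPMI 1640 with FBS, and SKOV-3 an ovarian cancer line in McCoy's 5a with FBS. The same antibody against acetylated lysine 27 of histone H3 was used in each, no treatment is given, and each line has 1 library. There is therefore no replicate error, no test between lines was made, and the intervals stated are exact 95% intervals that cover counting error only.

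YY1 is a zinc finger transcription factor that can activate or repress genes and that binds DNA for the INO80 chromatin remodelling complex. SETDB1 is a histone methyltransferase that places methyl groups on lysine 9 of histone H3 and silences genes and repeats, BCLAF1 is a nuclear protein with roles in transcription and RNA processing, and CLOCK is the transcription factor that pairs with BMAL1 to drive the circadian clock from E-box sequences. All are made in most cell types. H3K27ac is laid down by acetyltransferases at active promoters and enhancers, typically on the nucleosomes that flank a start site.

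The libraries held 22400000 (SKOV-3) to 36000000 (DU-145) ChIP tags, as recovered from the deposited peak values. SKOV-3 stands apart, since its list is the shortest, and counts over all lines are therefore also given without it. Of 5 ovarian carcinoma markers, 5 had a promoter peak in OVCAR-3 but only 1, PAX8, in SKOV-3. COLO-205 had 4 and DU-145 had 3, so peak presence did not set the ovarian lines apart. By summit pileup in RPM, defined below, OVCAR-3 was highest at each of the 5. At PAX8 it had 6.63, against 1.27 in COLO-205, 1.66 in DU-145 and 2.05 in SKOV-3. EMX2 had 6.69 in OVCAR-3 against 0.772 in COLO-205, and MSLN 3.13 against 1.91. OVCAR-3 was also highest at 79.1% of the 5060 genes with a recovered promoter pileup in all 4 lines. Of 5 colon markers, 3 had a promoter peak in COLO-205 (CDX2, VIL1 and LGALS4) and at most 1 did in any other line. Of 5 prostate markers, only TMPRSS2 had one in DU-145, against 3 in COLO-205 and 2 in OVCAR-3, so these markers did not set DU-145 apart as prostate. Epithelial markers EPCAM, KRT8, KRT18 and CDH1 had a promoter peak in COLO-205, DU-145 and OVCAR-3, and KRT8 and KRT18 in SKOV-3 as well.

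The promoter sequences are shown first, because every comparison turns on the peaks around them. Each is the 250 bases upstream of the most upstream GENCODE transcript start, read from GRCh37 on the strand of the gene. For YY1 the canonical start lies 846 bp further downstream, so its window does not adjoin that start. At the other genes these starts coincide or lie close together. Capitals mark matches to 8 short motifs, searched on both strands. The general promoter motifs were the GC box, written GGGCGG, the CCAAT box, named by its letters, and the TATA box, written TATAAA. The factor motifs were the E-box, written CACGTG, the ETS core, written CCGGAAG, the NRF1 core, written GCATGCG, the YY1 core, written CCATNTT, and the AP-1 site, written TGANTCA.
YY1, chr14:100704385-100704634, plus strand: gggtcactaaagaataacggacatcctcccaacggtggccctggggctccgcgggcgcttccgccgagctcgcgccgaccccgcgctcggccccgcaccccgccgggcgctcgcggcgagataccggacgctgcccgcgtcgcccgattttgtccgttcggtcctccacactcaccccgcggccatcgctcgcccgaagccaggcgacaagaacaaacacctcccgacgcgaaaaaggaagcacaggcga
SETDB1, chr1:150898489-150898738, plus strand: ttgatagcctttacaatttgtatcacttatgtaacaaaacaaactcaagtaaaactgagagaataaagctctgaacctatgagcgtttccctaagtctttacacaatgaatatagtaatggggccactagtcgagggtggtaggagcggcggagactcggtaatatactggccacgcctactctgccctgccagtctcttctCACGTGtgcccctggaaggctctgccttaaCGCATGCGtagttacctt
BCLAF1, chr6:136610990-136611239, minus strand: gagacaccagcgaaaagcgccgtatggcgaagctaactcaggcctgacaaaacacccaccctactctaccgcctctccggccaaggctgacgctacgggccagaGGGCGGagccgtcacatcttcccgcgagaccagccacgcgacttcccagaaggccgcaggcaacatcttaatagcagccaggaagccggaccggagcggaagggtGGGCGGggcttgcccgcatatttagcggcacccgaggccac
CLOCK, chr4:56413077-56413326, minus strand: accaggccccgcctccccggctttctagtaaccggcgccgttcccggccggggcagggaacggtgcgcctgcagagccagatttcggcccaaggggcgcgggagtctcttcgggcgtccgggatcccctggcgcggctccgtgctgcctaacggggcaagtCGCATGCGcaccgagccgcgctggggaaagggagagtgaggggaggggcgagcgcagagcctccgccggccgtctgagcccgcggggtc
None of the 4 windows held a TATA box, a CCAAT box, an ETS core, a YY1 core or an AP-1 site in these letters. The GC box occurred in BCLAF1 alone, 2 times, whereas 48.8% of 20094 promoter windows of this length held it. The NRF1 core, present in 3.77% of the windows, occurred in SETDB1 and CLOCK, in each case as a pair of overlapping matches on opposite strands. SETDB1 also held an E-box, the sequence that CLOCK and BMAL1 recognise, which 7.17% of the windows held. A match describes the letters and is no evidence of binding.

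The YY1 window differed from the others in its CpG content. Its observed over expected CpG ratio was 1.29, above that of 99.8% of the windows, with a GC content of 69.6%. The CLOCK window had the highest GC content of the 4, 73.6%, with a CpG ratio of 0.921. BCLAF1 had 64.0% GC and a ratio of 0.864, while SETDB1 had 46.0% GC, below the median of 59.6%, and a ratio of 0.682, close to the median of 0.664.

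All 4 regulators had a promoter peak in all 4 lines. The share of protein-coding genes with a promoter peak was 51.3% for COLO-205, 60.0% for DU-145, 60.6% for OVCAR-3 and 31.7% for SKOV-3, and 25.2% had one in each of the 4 lines. Leaving out SKOV-3, 38.2% had one in each of the other 3. The mark was thus found at these promoters in every line whatever the line of prediction, at genes that were chosen as widely expressed. The strength of a peak is given below as RPM, the tags piled up at its summit per 1000000 ChIP tags, taken at the highest promoter peak of the gene. This compares lines only as far as the total number of tags makes them comparable, and OVCAR-3 had the highest value of the 4 lines in 79.1% of the 5060 genes with a recovered promoter pileup in all 4, against 13.9% for DU-145, 3.87% for COLO-205 and 3.18% for SKOV-3.

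**Figure D1:**
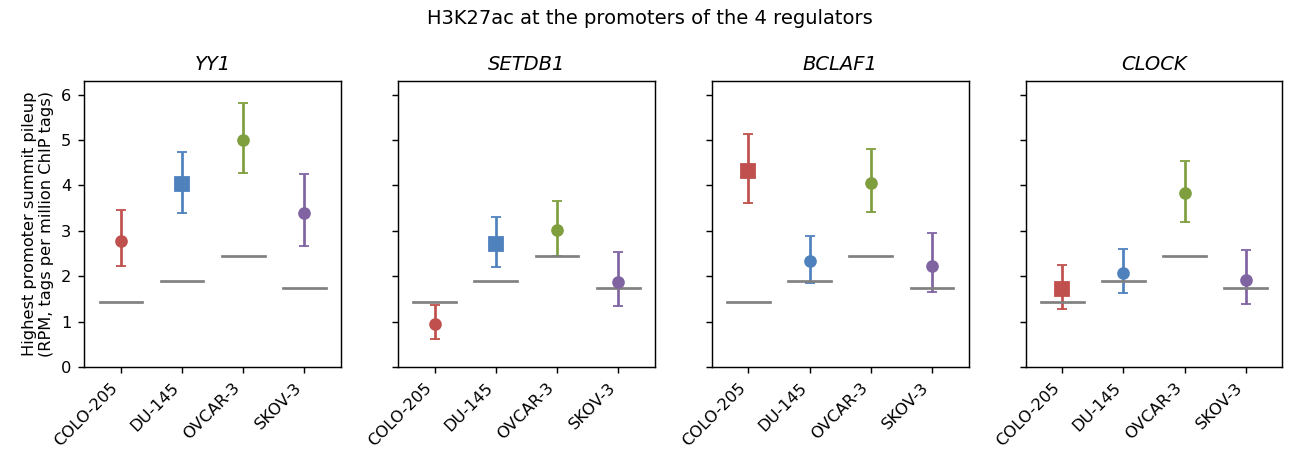
Highest promoter summit pileup of each regulator in each line, in RPM (tags per 1000000 ChIP tags) on a linear axis. Points are single libraries with exact 95% Poisson intervals, squares mark the line of prediction, and grey bars give the median of all genes with a promoter peak in that line. YY1 lies above the grey bar in each line, and SETDB1 in COLO-205, at 0.939, is the only value below it.

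YY1 lies on chr14:100704635-100749125, on the plus strand, with 9 annotated transcripts. Its promoter pileup was 2.78 RPM for COLO-205, 4.02 for DU-145, 5.00 for OVCAR-3 and 3.39 for SKOV-3, from 76 to 171 tags. These were high values within each library, above 94.8%, 99.1%, 90.6% and 96.1% of the genes with a promoter peak. OVCAR-3 exceeded DU-145 by 1.24 times, with an interval of 0.990 to 1.56 that includes 1, and the neighbouring steps from DU-145 to SKOV-3 and from SKOV-3 to COLO-205 were also within counting error. DU-145 exceeded COLO-205, which was lowest, by 1.44 times (1.10 to 1.92).
The acetylated stretch at YY1 was wide in COLO-205, DU-145 and OVCAR-3. In DU-145 a single peak of 3023 bp covered all 2001 bases within 1 kb of the canonical start, against a median of 977 bases over marked genes of that line. COLO-205 had 2 peaks there that together covered 1504 bases (median 436), and OVCAR-3 had 2 that covered 1872 (median 806). In SKOV-3 the peaks covered 473 bases (median 400). The highest summit lay within 168 bp of the first transcript start in each line, and at −36 bp from it in COLO-205. DU-145 and OVCAR-3 also had weak peaks 15.1 to 15.4 kb into the gene, near the start of a shorter transcript, of 0.721 and 0.643 RPM.

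SETDB1 lies on chr1:150898739-150937220, on the plus strand, with 20 annotated transcripts. Its promoter pileup was 0.939 RPM for COLO-205, 2.72 for DU-145, 3.01 for OVCAR-3 and 1.88 for SKOV-3, from 28, 98, 103 and 42 tags. COLO-205 stood below the other 3 lines, with ratio intervals that exclude 1. SKOV-3, the next lowest, was higher with an interval of 1.21 to 3.34 times, and OVCAR-3 was 3.20 times higher (2.09 to 5.06). OVCAR-3 and DU-145 differed by 1.11 times, within counting error (0.832 to 1.48).
The COLO-205 value also came from another place. Its only promoter peak, of 498 bp, ended 969 bp upstream of the first transcript start, and none of the bases within 1 kb of the canonical start lay in a peak. In DU-145, OVCAR-3 and SKOV-3 the highest summit lay between 222 and 258 bp downstream of the first start, inside the gene. The count of marked members in COLO-205 therefore rests on this flank: it fell to 3 of 4 with a window of 500 bp, with more of the peak required inside the window (at least 50%), with the −log10 q minimum at 10, and with lists cut to equal length. The COLO-205 pileup exceeded that of 18.9% of marked genes, while in DU-145 SETDB1 exceeded 86.4%.

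BCLAF1 lies on chr6:136577765-136610989, on the minus strand, with 24 annotated transcripts. Its promoter pileup was 4.33 RPM for COLO-205, 2.33 for DU-145, 4.06 for OVCAR-3 and 2.23 for SKOV-3, from 129, 84, 139 and 50 tags. The lines fell into a higher pair, COLO-205 and OVCAR-3, which differed by 1.07 times (0.832 to 1.36), and a lower pair, DU-145 and SKOV-3, which differed by 1.04 times (0.727 to 1.51). Between the pairs, OVCAR-3 exceeded DU-145 by 1.74 times (1.32 to 2.31). In COLO-205 the value was above 99.5% of the marked genes, the highest rank by pileup of any regulator in any line. By the deposited fold enrichment over local background it was above 97.9%, and YY1 in SKOV-3 ranked higher, above 98.8%.
Each line showed peaks on both sides of the BCLAF1 start with a gap between them. The highest summit lay 225 to 306 bp into the gene, and an upstream peak had its summit at −613 to −319 bp from the first start. This divergent start is shared with an antisense lncRNA, ENSG00000289312, which begins 163 bp away, so the acetylation of the 2 genes cannot be told apart. The upstream peak reached 1.68 RPM for COLO-205, 1.66 for DU-145, 2.60 for OVCAR-3 and 1.65 for SKOV-3, so that COLO-205 was high on the gene side only.

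CLOCK lies on chr4:56294070-56413076, on the minus strand, with 11 annotated transcripts. Its promoter pileup was 1.71 RPM for COLO-205, 2.08 for DU-145, 3.83 for OVCAR-3 and 1.92 for SKOV-3, from 51, 75, 131 and 43 tags. OVCAR-3 was above the rest, 1.84 times DU-145 (1.38 to 2.48), and the other 3 lines did not differ beyond counting error, with DU-145 at 1.22 times COLO-205 (0.841 to 1.77). Within the libraries the values were moderate, above 66.0%, 59.6%, 78.3% and 59.9% of marked genes.
A single peak of 1409 to 1866 bp spanned the CLOCK start in each line. It covered between 1234 and 1703 of the bases within 1 kb of the start, more than 93.7% of marked genes for COLO-205, 90.9% for DU-145, 87.0% for OVCAR-3 and 97.3% for SKOV-3. CLOCK thus had broad acetylation of moderate height. An antisense lncRNA, ENSG00000272969, starts 203 bp away within the same peak. Start positions of antisense lncRNAs also fall within the YY1 peaks, where ENSG00000258982 begins 257 bp from the first YY1 start.

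The line of prediction was compared with the median of the other 3 lines. The log2 ratio was 0.25 for YY1 in DU-145 (interval −0.16 to 0.67), 0.54 for SETDB1 in DU-145 (0.00 to 1.09), 0.89 for BCLAF1 in COLO-205 (0.49 to 1.31) and −0.28 for CLOCK in COLO-205 (−0.82 to 0.25). BCLAF1 was the only regulator with its highest value in the line of prediction, and CLOCK had its lowest there. DU-145 ranked second at both YY1 and SETDB1, behind OVCAR-3. Without SKOV-3 the ratios were 0.05 for YY1, 0.46 for SETDB1, 0.44 for BCLAF1 and −0.79 for CLOCK, each in the same direction. The SETDB1 ratio rests on its COLO-205 flank, and was 0.15 where that peak was left out by a window of 500 bp or a −log10 q of at least 10.
The promoters around each gene had a median ratio of the same sign as the gene, and 2 of the 4 directions depended on the scale. Over the shared promoters within 5 Mb, the median log2 ratio was 0.67 in DU-145 around YY1 (34 genes) and 0.49 around SETDB1 (59 genes). In COLO-205 it was 0.76 around BCLAF1 (10 genes) and −0.29 around CLOCK (10 genes). Over all 5060 genes the medians were 0.12 in DU-145 and −0.38 in COLO-205. Scaled to the other shared promoters of chromosome 14, YY1 in DU-145 was lower than the other lines, with a log2 ratio of −0.36. By the fold enrichment as deposited, YY1 was at −0.47 and CLOCK at 0.22. The local background at the summit, which the fold enrichment divides by, was 0.423 RPM at YY1 in DU-145 and 0.231 to 0.375 RPM in the other lines. At CLOCK it was 0.272 RPM in COLO-205, 0.442 in DU-145, and 0.251 and 0.356 in OVCAR-3 and SKOV-3.

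**Figure D2:**
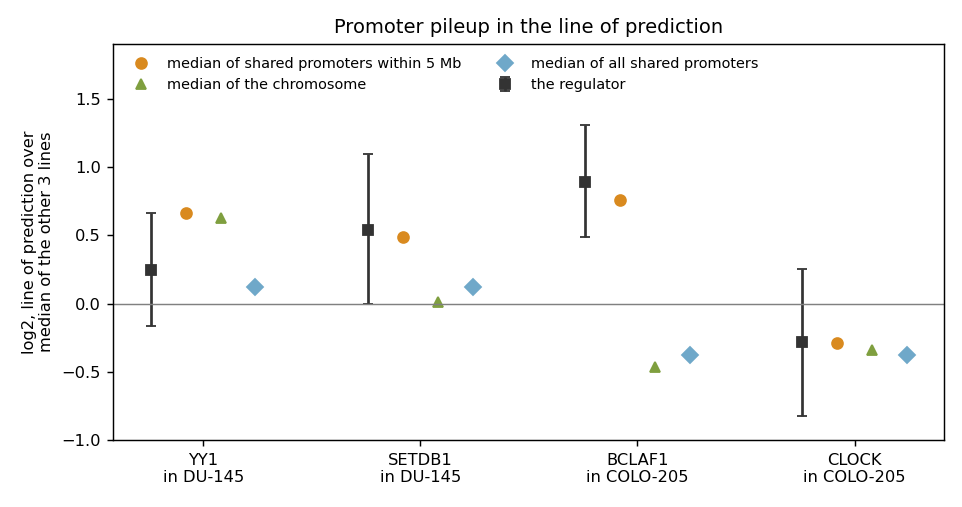
Log2 ratio of promoter summit pileup in the line of prediction over the median of the other 3 lines. Squares are the regulators with 95% counting intervals, and the other symbols are medians over promoters shared by the 4 lines, without an interval. The values within 5 Mb of SETDB1, BCLAF1 and CLOCK lie inside the interval of the gene itself, and that around YY1, 0.67, lies at its upper end.

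Distal peak counts ranged widely between lines. The number of distal peaks of YY1 was 11 for COLO-205, 56 for DU-145, 13 for OVCAR-3 and 3 for SKOV-3. SETDB1 had 3, 37, 7 and 0 in the same order, BCLAF1 had 51 in COLO-205 and 0 in each of the other lines, and CLOCK had 1, 3, 0 and 0. YY1, SETDB1 and BCLAF1 thus had most distal peaks in the line of prediction, and CLOCK did not. With peaks under 350 bp apart merged, the step the study describes, YY1 had 35 in DU-145 against 12 in OVCAR-3, the next line, SETDB1 had 30 in DU-145 and BCLAF1 43 in COLO-205. The share of all genes with at least 1 distal peak was 71.9% for COLO-205, 61.4% for DU-145, 56.8% for OVCAR-3 and 19.7% for SKOV-3. Of all genes, 26.6% had more distal peaks in DU-145 than in each other line, and 32.0% in COLO-205. Windows with at least as many distal peaks per 100 kb as YY1 in DU-145 were found at 0.398% of genes, as SETDB1 in DU-145 at 1.23%, as BCLAF1 in COLO-205 at 0.398% and as CLOCK in COLO-205 at 69.2%.

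**Figure D3:**
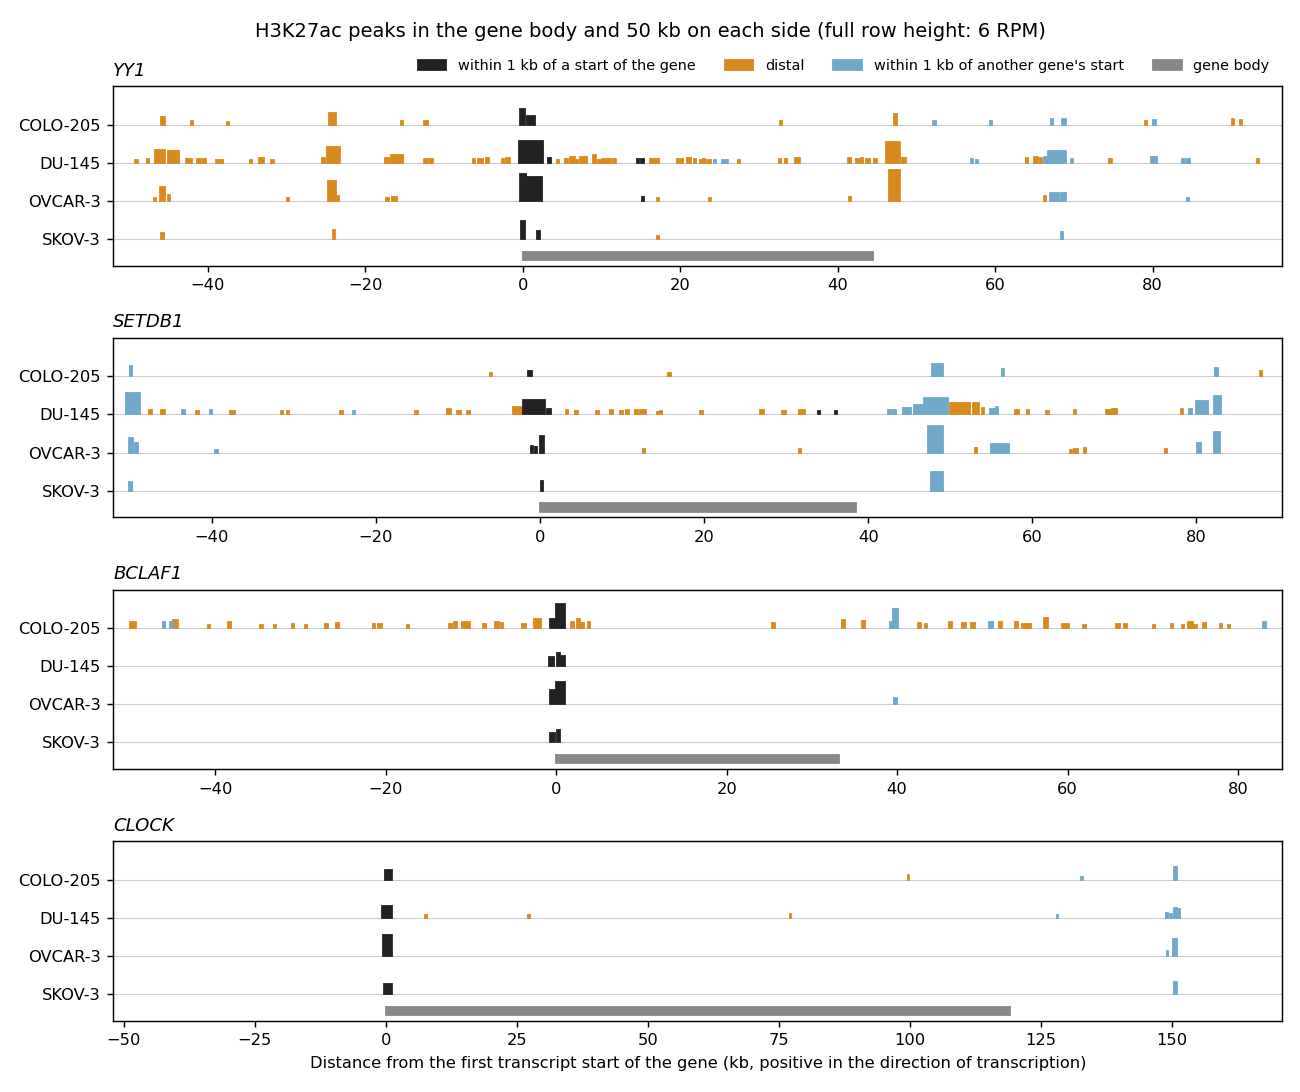
All H3K27ac peaks in the gene body and 50 kb on each side, by distance in kb from the first transcript start in the direction of transcription, with 1 row per line. Bar height is the summit pileup, black bars are promoter peaks of the regulator, orange bars distal peaks and blue bars peaks at starts of other genes. DU-145 is dense at YY1 and SETDB1, COLO-205 at BCLAF1, and the CLOCK row holds 3 distal peaks at most.

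These dense windows were part of dense surroundings. The DNA copy number of these stretches in each line was not analysed here. Around YY1 in DU-145, the window held 38.8 distal peaks per 100 kb, the remaining 1 Mb on each side 17.7 and the remaining 5 Mb on each side 14.1. Genes of chromosome 14 averaged 13.8 in DU-145, and genes of the other chromosomes 2.90. Among chromosome 14 genes, 6.49% had at least as many as YY1.
SETDB1 in DU-145 was no denser than its surroundings, with 26.7 per 100 kb in the window and 26.9 over the remaining 1 Mb on each side, falling to 11.1 over 5 Mb. The chromosome 1 mean was 3.06, so the dense stretch was local. BCLAF1 in COLO-205 had 38.3 in the window, 22.3 over 1 Mb and 13.0 over 5 Mb, with a chromosome 6 mean of 3.85. CLOCK in COLO-205 had 0.457 in the window, 0.579 over 1 Mb and 0.283 over 5 Mb, below the mean of 3.30 over all genes in that line.

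**Figure D4:**
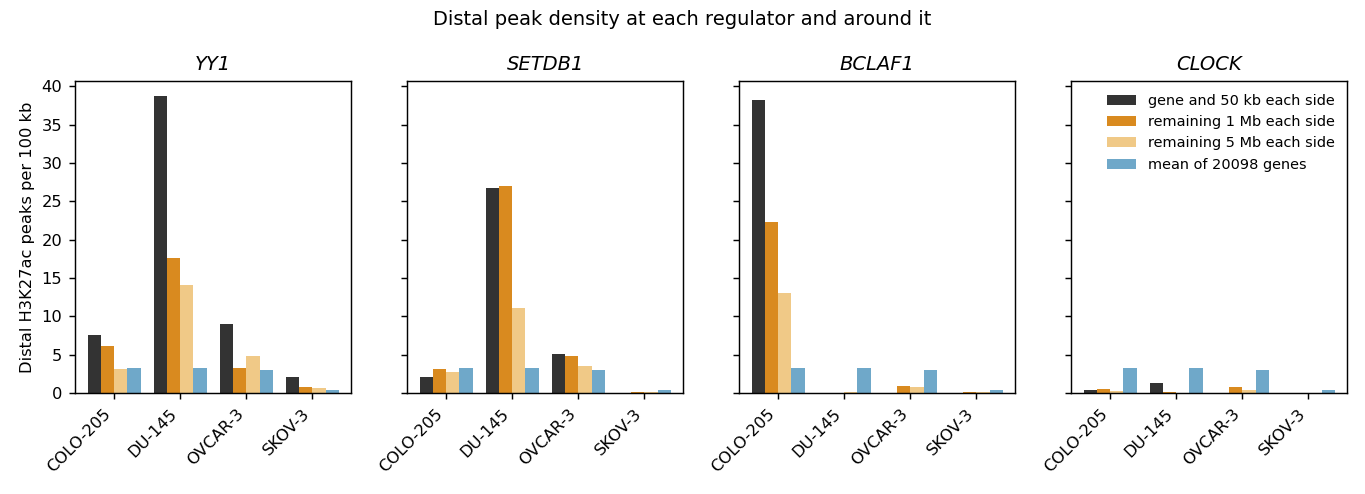
Distal H3K27ac peaks per 100 kb at each regulator, in the remaining 1 Mb and 5 Mb on each side (the 5 Mb include the 1 Mb), and as the mean over all genes, by line. Bars are counts from single libraries and carry no error. The raised bars at YY1 and SETDB1 in DU-145 and at BCLAF1 in COLO-205 come with raised bars in the surroundings.

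The distal peaks in the line of prediction were mostly seen in 1 line, as were distal peaks in general, and their median pileup was close to that of all distal peaks of the line, 0.666 RPM in DU-145 and 0.772 in COLO-205. Of the 56 at YY1 in DU-145, 44 overlapped no peak of another line, where 75.3% of all 45813 distal peaks of DU-145 near coding genes did not, and the median pileup was 0.707 RPM against 4.02 at the promoter. The other lines had few distal peaks of their own at YY1, with 4 of 11 found in COLO-205 alone, 1 of 13 in OVCAR-3 alone and 0 of 3 in SKOV-3 alone, where the shares over all distal peaks were 82.9%, 71.6% and 35.2%. DU-145 distal peaks covered 29662 bp of the 144 kb YY1 window, and the shares over all distal peaks do not allow for that density. Of the 37 at SETDB1 in DU-145, 33 were found in DU-145 alone, with a median of 0.721. All 51 at BCLAF1 were found in COLO-205 alone, as were 82.9% of all 49885 distal peaks of that line, with a median of 0.805 and a highest value of 1.78, and 34 of them sat where the local background was at the lowest value of the library. With the 4 lists cut to equal length, the lead of the line of prediction over the next line shrank to 6 peaks at YY1, 1 at SETDB1 and 25 at BCLAF1.
In position, the BCLAF1 peaks lay mainly outside the gene, 21 upstream, 25 downstream and 5 in the gene body. At YY1 in DU-145, 26 lay in the gene body, 22 upstream and 8 downstream. SETDB1 in DU-145 had 14 in the body, 12 upstream and 11 downstream. The distal peaks of CLOCK all lay within its long gene body.

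YY1 was the only regulator with distal regions marked in more than 2 lines. Overlapping peaks formed 62 distal regions around it, of which 2 were found in all 4 lines, 3 in 3 lines, 7 in 2 lines and 50 in 1 line. The 5 regions in 3 or 4 lines were 8.06% of its regions, against 1.78% of all 125078 distal regions near coding genes. The share over all regions does not allow for the density of DU-145 peaks at YY1. Without SKOV-3, 4 of the 62 were found in each of the other 3 lines, against 1.12% of all regions. SETDB1 had 4 regions in 2 lines and 39 in 1, each of the shared ones in DU-145 and OVCAR-3. The 51 regions of BCLAF1 and the 4 of CLOCK were each found in 1 line.
The first of the YY1 regions in all 4 lines, chr14:100679839-100681476, lies at −23.9 kb from the first YY1 start, in an intron of the antisense lncRNA ENSG00000258982. Its summit pileup was 2.15 RPM for COLO-205, 2.86 for DU-145, 3.74 for OVCAR-3 and 1.74 for SKOV-3, lower than the promoter in each line. The second, chr14:100657855-100659267, lies at −45.7 kb in no annotated gene, and reached 1.38, 2.44, 2.66 and 1.16 RPM. In both, OVCAR-3 was highest and SKOV-3 lowest.
Past the end of YY1, chr14:100750834-100752561 was marked in COLO-205 at 1.91, in DU-145 at 3.77 and in OVCAR-3 at 5.64 RPM, with no peak in SKOV-3. It lies at +47.3 kb from the first YY1 start, in an intron of the antisense lncRNA ENSG00000259052 and 8839 bp from the nearest start of a coding gene, SLC25A29. In OVCAR-3 its −log10 q of 169 was above the 148 of the YY1 promoter, and its pileup of 193 tags against 171 gave overlapping intervals. Its OVCAR-3 and DU-145 values were the highest of any distal peak of the 4 regulators, whereas in COLO-205 the region at −23.9 kb was higher.

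**Figure D5:**
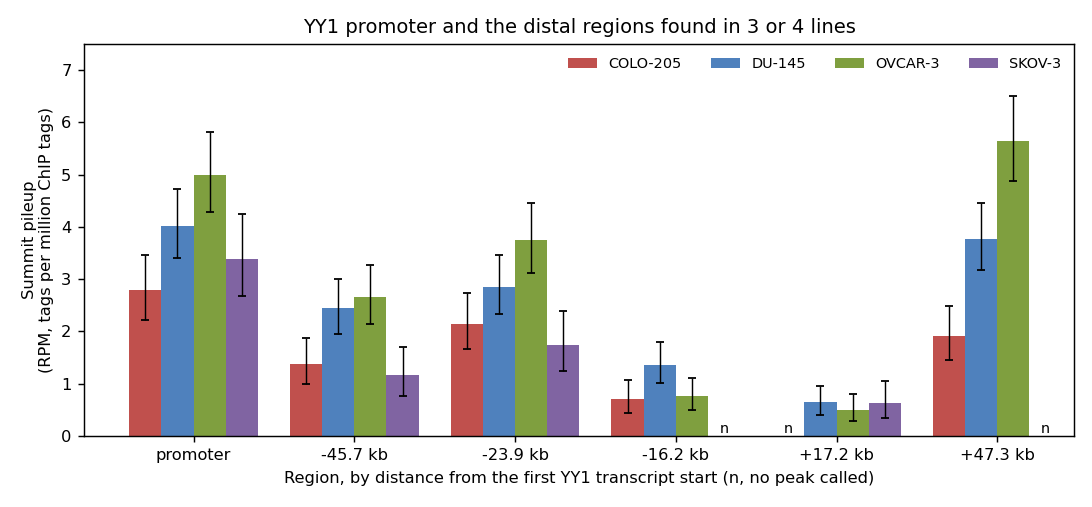
Summit pileup at the YY1 promoter and at the 5 distal regions found in 3 or 4 lines, in RPM, with exact 95% Poisson intervals. The letter n marks a line with no peak called. The region at +47.3 kb reaches 5.64 in OVCAR-3, next to 5.00 at the promoter, and is not called in SKOV-3.

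The sequences at these 3 regions are shown because they reach the highest pileups of the distal sites that several lines share. Each is the 200 bases around the median summit, on the plus strand of GRCh37, with the same motifs in capitals.
YY1 −23.9 kb, chr14:100680597-100680796: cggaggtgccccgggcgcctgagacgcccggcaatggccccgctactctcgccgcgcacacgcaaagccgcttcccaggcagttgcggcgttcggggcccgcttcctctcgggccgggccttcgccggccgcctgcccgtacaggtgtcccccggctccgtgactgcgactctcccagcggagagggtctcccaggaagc
YY1 −45.7 kb, chr14:100658907-100659106: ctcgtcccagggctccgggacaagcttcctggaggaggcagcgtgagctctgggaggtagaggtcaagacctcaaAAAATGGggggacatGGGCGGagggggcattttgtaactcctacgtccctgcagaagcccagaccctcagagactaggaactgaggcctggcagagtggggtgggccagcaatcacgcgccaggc
YY1 +47.3 kb, chr14:100751879-100752078: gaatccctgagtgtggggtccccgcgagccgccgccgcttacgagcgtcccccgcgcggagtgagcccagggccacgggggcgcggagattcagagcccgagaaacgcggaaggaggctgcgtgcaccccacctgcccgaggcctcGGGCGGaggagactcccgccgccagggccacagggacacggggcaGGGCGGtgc
The regions at −23.9 kb and +47.3 kb were rich in G and C, at 74.0% and 75.0%, above 99.5% and 99.6% of the 50185 distal windows of DU-145, whose median was 53.5%. Neither lies within 1 kb of an annotated start. Their observed over expected CpG ratios were 0.924 and 0.857, above the median of 0.664 over the promoter windows, against 0.374 at −45.7 kb. The +47.3 kb window held the GC box 2 times, a motif found in 9.18% of these windows, and the −23.9 kb window held none of the motifs. The −45.7 kb window held a GC box and a YY1 core, the latter found in 27.6% of the windows.

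Other genes gave peaks within the same windows. Near SETDB1 lie ARNT, which encodes a partner of bHLH-PAS factors, and CERS2, a ceramide synthase, and both had promoter peaks in all 4 lines. At ARNT the pileup was 1.81 RPM for COLO-205, 3.91 for DU-145, 2.75 for OVCAR-3 and 1.56 for SKOV-3. At CERS2 it was 2.21, 3.02, 5.00 and 3.53. MINDY1 and PRUNE1, which share a promoter peak, and ANXA9 were marked in COLO-205, DU-145 and OVCAR-3 but not in SKOV-3, and CTXND2 in DU-145 and OVCAR-3.
MTFR2, the coding neighbour of BCLAF1, was marked in COLO-205 and OVCAR-3. Its promoter pileup was 3.49 RPM in COLO-205 and 1.11 in OVCAR-3, and no promoter peak was called in DU-145 or SKOV-3. TMEM165, next to CLOCK, had 2.28 for COLO-205, 1.83 for DU-145, 3.13 for OVCAR-3 and 2.19 for SKOV-3, and its start region is shared with SRD5A3-AS1. SLC25A29, next to YY1, with peaks that in part also lie at MIR345, had 1.04, 2.25, 1.49 and 1.34, so that DU-145 was highest there, whereas OVCAR-3 was highest at YY1. SLC25A47 was marked weakly in DU-145 and OVCAR-3.

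The promoters of genes that work with each regulator were also counted, from lists chosen with results of these data known. The shares of all genes to set beside them are those given above, 51.3%, 60.0%, 60.6% and 31.7% in the order COLO-205, DU-145, OVCAR-3, SKOV-3, with 25.2% in all 4 lines and 38.2% in all but SKOV-3. Of 17 YY1 partners, mostly INO80 subunits, the number with a promoter peak was 10 for COLO-205, 15 for DU-145, 14 for OVCAR-3 and 8 for SKOV-3, and 6 had one in all 4 lines (35.3%), or 10 without SKOV-3 (58.8%). In COLO-205 the share was 58.8%, near that of all genes. YY2, a paralogue of YY1, and ZFP42, a paralogue used in stem cells, had a promoter peak in none, and INO80B in DU-145 alone. YY1AP1, which encodes a YY1-associated protein, was marked in all 4 lines, at 3.96 RPM for COLO-205, 3.91 for DU-145, 6.23 for OVCAR-3 and 3.48 for SKOV-3.
Of 16 genes of SETDB1 partners and lysine 9 methylation, the number marked was 14 for COLO-205, 14 for DU-145, 15 for OVCAR-3 and 10 for SKOV-3, and 10 were marked in all 4 lines, or 13 without SKOV-3. These are 62.5% and 81.2% of the list, against 25.2% and 38.2% of all genes. ATF7IP, the direct partner of SETDB1, and TRIM28, which recruits it, were among the 10. ATF7IP2 was marked in OVCAR-3 alone and MPHOSPH8, a subunit of the HUSH complex, in COLO-205 alone. The paralogue SETDB2 was marked in 3 lines and not in SKOV-3, with 2.42 RPM for COLO-205, 1.39 for DU-145 and 1.37 for OVCAR-3, where SETDB1 instead was lowest in COLO-205.
The number of the 13 BCLAF1 partners in RNA processing with a promoter peak was 11 for COLO-205, 12 for DU-145, 13 for OVCAR-3 and 13 for SKOV-3, and 11 were marked in all 4 lines, the same count as without SKOV-3. This is 84.6% of the list, against the same 25.2% and 38.2%. THRAP3, the paralogue that acts with BCLAF1, was marked in all 4, at 1.54, 1.75, 2.92 and 2.72 RPM. BCLAF3, another paralogue, was marked in OVCAR-3 and SKOV-3.
Of 25 circadian clock genes other than CLOCK, the number marked was 22 for COLO-205, 19 for DU-145, 24 for OVCAR-3 and 12 for SKOV-3, and 10 were marked in all 4 lines, or 18 without SKOV-3. The shares were 40.0% and 72.0%, against 25.2% and 38.2% of all genes. BMAL1, the partner of CLOCK, and NPAS2, its paralogue, were marked in COLO-205, DU-145 and OVCAR-3 but not in SKOV-3. BMAL1 reached 0.872 RPM for COLO-205, 1.75 for DU-145 and 1.55 for OVCAR-3, and the paralogue BMAL2 was marked in all 4 lines. PER2 and PER3, inhibitors of CLOCK, had no promoter peak in DU-145 and one in each other line. RORB and BHLHE41 were marked in OVCAR-3 alone, at 0.409 and 6.87 RPM, and HLF in COLO-205 alone.
Among the other 10 regulators that the study predicted for these lines, 3 were marked in all 4 lines (ZEB1, EGR1 and FOS) and 4 without SKOV-3, near the shares of 25.2% and 38.2% over all genes. TFF3, predicted for COLO-205, was marked in COLO-205 alone, and HOXB13, also predicted for COLO-205, in OVCAR-3 alone.

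The promoters most like each regulator were found by the Euclidean distance of log2 pileups over the 4 lines, among 5059 other genes. For YY1 these were ZBTB25 and ZBTB1, which share a peak on chromosome 14, both at a distance of 0.20, and TUBA1B on chromosome 12 at 0.25. For SETDB1 they were NR3C1 at 0.11, KLHL5 at 0.18 and AGPAT5 at 0.20. For BCLAF1 they were INTS6 at 0.30, RBM26 at 0.35, both on chromosome 13, and SNRNP35 at 0.38. For CLOCK they were NR4A2 at 0.08, NAA25 at 0.09 and TPX2 at 0.11. The median gene lay at 1.69 from YY1, 1.29 from SETDB1, 1.59 from BCLAF1 and 0.89 from CLOCK, so that CLOCK had the most common pattern of the 4.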

How the data were processed

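The H3K27ac ChIP-seq peak lists of the 4 lines, each from 1 library, were analysed. The authors mapped reads with Bowtie2 2.1.0 to hg19 and called peaks per library with MACS2 2.1.0.20150603, per the submitters' processing notes. The deposited peak lists give a score, the fold enrichment over local background (a ratio), the −log10 p and the −log10 q from the authors' peak caller, at q below 0.001 and not scaled between libraries. Merging of peaks under 350 bp apart is described by the study, but the deposited lists hold closer neighbours, so they were used unmerged.

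Summit pileup and background were solved from the fold enrichment and −log10 p that the authors deposited, within 0.001 on the −log10 scale, at 99.9% or more of the summits of each list. The number of ChIP tags follows from 2700000000 genome positions, the smallest peak width (as fragment length) and the lowest background of a list. RPM values are summit tags per 1000000 of these. Pileup intervals are exact Poisson and ratio intervals exact Clopper-Pearson, at 95%, for counting error only. PCR duplicates are not independent molecules.

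Groups follow the labels. Overlap means at least 1 bp. Annotation was GENCODE lifted to GRCh37. Named genes are the 4 members, their 3 nearest promoters each, other genes with starts in the windows, and list members marked in no line or 1 line or that are paralogues or direct partners. ZEB1, EGR1, FOS, PER2, PER3, BMAL2 and TRIM28 were added after their values were seen, as were the markers named. The members and lists were chosen with earlier results of these data known. Alternatives were other q thresholds, windows, transcript sets, scalings, merging and equal peak numbers. Leaving out SKOV-3 from the counts over all lines, and the lead in distal peaks, were added after the data were seen. Python 3.11.15, pandas 2.3.3, numpy 2.4.6, SciPy 1.17.1 and matplotlib 3.10.9 were used. Mutations, RNA-seq and other lines were not analysed here, and values of some genes are not reported here.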

Additional observations from a re-analysis of the deposited data

How the results depend on the processing

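All 32 alternative counts of marked members stayed at 3 or 4 of 4, the values of 3 being SETDB1 in COLO-205. Of 40 alternative promoter ratios, 36 kept their direction within the counting interval. The q thresholds could change this ratio only at SETDB1, whose COLO-205 summit had a −log10 q of 5.52. All other highest summits exceeded 10, so unchanged values there are no evidence of stability. The log2 ratio of YY1 reversed to −0.47 by fold enrichment and to −0.36 scaled to its chromosome, that of CLOCK reversed to 0.22 by fold enrichment, and that of BCLAF1 moved to 0.44 without SKOV-3. Within the counting interval, CLOCK moved to −0.79 and YY1 to 0.05 without SKOV-3, and SETDB1 to 0.15 with a 500 bp window or a −log10 q of at least 10. The summed distal peaks of the 4 regulators were 66 for COLO-205, 96 for DU-145, 20 for OVCAR-3 and 3 for SKOV-3. With the −log10 q minimum at 10 they were 41, 32, 6 and 1, so that COLO-205 rather than DU-145 was highest. Merging peaks under 350 bp apart gave 58, 68, 18 and 3, and lowered the lead of DU-145 at YY1 to 23 peaks. With all lists cut to 14001 peaks they were 28 for COLO-205, 11 for DU-145 and 3 for OVCAR-3. A window of 20 kb gave 29 for COLO-205, 9 for OVCAR-3 and 1 for SKOV-3, and one of 100 kb gave 105 in COLO-205 and 36 in OVCAR-3. Counting peaks outside the starts of the member only gave 34 for OVCAR-3 and 7 for SKOV-3. The lead of the line of prediction in distal peaks kept its sign at YY1, SETDB1 and BCLAF1 under each of the 9 alternatives, with 15, 11 and 36 peaks at a −log10 q of at least 10. Without SKOV-3, the genes marked in every line rose from 6 to 10 of the YY1 partners and from 10 to 18 of the clock genes. The cause of these changes was not tested. No paired analysis was possible because each line has 1 library and the labels give no replicate numbers. Pileup intervals cover the depth of each library, and a missing peak in SKOV-3 says only that none was called there.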

Other observations

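Part of the acetylation near the regulators lay at starts of other genes. Within 50 kb of the gene bodies, peaks at starts that are not those of the regulator itself came to 17 for COLO-205, 30 for DU-145, 14 for OVCAR-3 and 4 for SKOV-3, against 6, 12, 9 and 6 promoter peaks of the regulators. In DU-145, 14 of the 30 lay around SETDB1 and 11 around YY1, 5 around CLOCK and 0 around BCLAF1. In COLO-205 the order was another, with 6 around BCLAF1, 5 around YY1, 4 around SETDB1 and 2 around CLOCK.
Several partner genes had many more distal peaks in 1 line than in the others. INO80C, an INO80 subunit, had 72 distal peaks in DU-145, 2 in SKOV-3 and 0 in COLO-205 and OVCAR-3. RBM25, a splicing factor on the BCLAF1 list, had 55 in DU-145 against 6 in COLO-205, 3 in OVCAR-3 and 11 in SKOV-3, and EHMT1, a lysine 9 methyltransferase, had 64 in COLO-205 against 26 for DU-145, 14 for OVCAR-3 and 0 for SKOV-3. MPHOSPH8 had 31 in COLO-205 and 0 in DU-145, OVCAR-3 and SKOV-3, and its promoter was marked in COLO-205 alone. Windows with at least as many per 100 kb in the same line were found at 0.129% of all genes for INO80C, 0.667% for RBM25, 2.92% for EHMT1 and 1.82% for MPHOSPH8. These shares are over all genes. Unlike for YY1, the counts were not set against the surroundings or the chromosome, so they may not be particular to these genes. These genes were chosen after their values were seen.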
